A study of Mus musculus with 45 samples.

Results

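NANOG is a homeodomain transcription factor that mouse embryonic stem cells (mESCs) use to keep the naive pluripotent state. Its homeodomain recognises short sites with a TAAT core, and it shares many enhancers with the HMG-box factor SOX2 and the POU factor OCT4, which can bind side by side on a composite site. SOX2 and OCT4 are known as pioneer factors, which keep DNA accessible, whereas NANOG is usually described as acting on DNA that is already open. The peaks described here are the ATACseq peaks that lost accessibility when NANOG was degraded and that still held most of theirs shortly after SOX2 or OCT4 was degraded. In ATACseq, the Tn5 transposase cuts DNA that is accessible, and the fragments counted in a peak are read as its accessibility.

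Peaks were chosen by measured values in CPM, the count of a peak scaled to the total of its library outside mitochondrial peaks. A member had a mean of at least 4 CPM in untreated NANOG-FKBP cells (NT), was at 0.75 of that mean or lower in each of the 3 replicates after 24 h of NANOG depletion, and kept at least 0.8 of the NT mean at 2 h of depletion in both the SOX2-FKBP and the OCT4-FKBP line. Of 184964 peaks, 2431 met this rule. The starting set of 61649 peaks at 4 CPM or more is called the accessible peaks below, and it includes the members. Of the accessible peaks, 6352 fell to the 24 h limit. Besides the members, 1926 of those were below 0.8 at 2 h in both other lines and serve as the comparison, called shared peaks. The remaining ones were below 0.8 in SOX2-FKBP alone (1251) or in OCT4-FKBP alone (744). The mirror image of the rule, with every limit turned round (gained at 24 h of NANOG depletion, and not gained at 2 h in the other lines), was met by 796 peaks. The choice fixes the direction of the NANOG-FKBP change at 24 h and a lower limit at 2 h in the other lines, so these are descriptions and carry no test. The choice says nothing of later times in the other lines, and there many members stood well below NT.

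In each line, Sox2, Pou5f1 (the gene of OCT4) or Nanog carries an FKBP tag, placed at the C-terminus of SOX2 and NANOG, and 500 nM dTAG-13 directs the tagged protein to the proteasome. NT cells of each line received DMSO and carry the same tag. The labels give E14 mESCs for the SOX2-FKBP and NANOG-FKBP lines, with the methods naming IB10 cells for SOX2, and V6.5 for the OCT4-FKBP line, so that the degraded factor and the line of origin cannot be told apart between OCT4-FKBP and the others. Libraries were made in duplicate for SOX2-FKBP (NT, 0.5, 1, 2, 6 and 24 h) and OCT4-FKBP (NT, 2, 6 and 24 h), and for NANOG-FKBP there were 2 NT libraries and 3 each at 2, 6 and 24 h, all grown in 2i/LIF medium. The methods speak of duplicates for NANOG and of an added independent clone for SOX2, which no label ties to a library used here. The labels do not say whether replicates were separate cultures, so p-values measure the spread between samples, which may be technical.

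Total counts lay between 5664738 and 10887645 in the SOX2-FKBP libraries, 6378962 and 17575631 in OCT4-FKBP, and 1817191 and 12437876 in NANOG-FKBP. Replicate 2 of the treated NANOG-FKBP times was shallow (1817191 to 3272168 counts), where the median member held 7 counts at 2 h and at 24 h and 12 at 6 h. In these libraries 13.2% to 17.6% of the counts lay in mitochondrial peaks, against 2.67% to 4.53% in the other NANOG-FKBP libraries. Of 7 stem cell markers, 6 had a peak at their start site and Pou5f1 had none. None of the stem cell or fibroblast marker promoters was a member. Of 6 fibroblast markers, Col3a1 had no peak at its start site. The other fibroblast promoters ranged in NT from 0.34 to 1.59 CPM at Postn to 7.69 to 17.2 CPM at Thy1, the stem cell promoters from 5.17 to 8.38 CPM at Tdgf1 to 57.2 to 74.2 CPM at Esrrb (3 peaks summed), so that promoter accessibility overlapped between the 2 lists.

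The sequences below are not a sample of all members, of which 16.6% held the NANOG homeodomain core and 53.5% none of the 4 patterns marked. The first 7 are from the 8 members of at least 8 CPM in NT that had the least accessibility left at 24 h of NANOG depletion, and the last 2 lie near Axin2, a Wnt target gene, and Esrrb, which codes for a nuclear receptor of the naive network. Each is the 200 bases around the summit (mm10, read from the GRCm38 reference). Capitals mark the NANOG homeodomain core (TAATGG or TAATTG), the ESRRB site (AAGGTCA), the KLF box (CCACNCCC) and the TCF-LEF site (TTTGATC), searched on both strands.
chr4:110125469-110125668, + strand, nearest to Dmrta2: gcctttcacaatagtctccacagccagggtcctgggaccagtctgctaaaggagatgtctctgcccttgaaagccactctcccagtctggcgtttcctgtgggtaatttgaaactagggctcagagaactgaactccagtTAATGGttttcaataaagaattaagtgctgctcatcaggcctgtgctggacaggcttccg
chr8:86390030-86390229, + strand, nearest to Abcc12: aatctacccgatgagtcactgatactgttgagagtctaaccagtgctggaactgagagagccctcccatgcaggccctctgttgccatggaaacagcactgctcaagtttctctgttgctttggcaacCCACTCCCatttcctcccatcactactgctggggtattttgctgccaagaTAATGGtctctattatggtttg
chr9:41515224-41515423, + strand, nearest to Gm48742: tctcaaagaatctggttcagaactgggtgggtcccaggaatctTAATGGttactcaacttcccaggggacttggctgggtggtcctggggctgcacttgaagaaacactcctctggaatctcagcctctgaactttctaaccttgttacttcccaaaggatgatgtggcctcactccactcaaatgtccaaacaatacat
chr9:55101191-55101390, + strand, nearest to Gm47887: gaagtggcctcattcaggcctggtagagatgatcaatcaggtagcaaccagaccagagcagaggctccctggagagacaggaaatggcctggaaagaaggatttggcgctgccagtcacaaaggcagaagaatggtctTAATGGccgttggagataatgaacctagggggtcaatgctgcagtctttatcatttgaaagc
chr7:118887571-118887770, + strand, nearest to Knop1: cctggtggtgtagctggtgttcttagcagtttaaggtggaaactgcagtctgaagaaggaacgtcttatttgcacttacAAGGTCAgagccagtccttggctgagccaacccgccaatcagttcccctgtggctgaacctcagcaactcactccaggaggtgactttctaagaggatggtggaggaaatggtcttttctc
chr14:99275858-99276057, + strand, nearest to Klf5: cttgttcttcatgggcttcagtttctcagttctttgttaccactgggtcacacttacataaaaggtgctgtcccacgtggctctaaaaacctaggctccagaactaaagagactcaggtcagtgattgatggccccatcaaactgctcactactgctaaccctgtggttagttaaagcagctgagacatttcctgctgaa
chr2:75064787-75064986, + strand, nearest to Gm13652: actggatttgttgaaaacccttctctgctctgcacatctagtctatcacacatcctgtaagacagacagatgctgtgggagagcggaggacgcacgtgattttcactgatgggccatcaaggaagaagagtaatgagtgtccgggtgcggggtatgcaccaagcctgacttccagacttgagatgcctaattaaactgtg
chr11:108897746-108897945, + strand, nearest to Axin2: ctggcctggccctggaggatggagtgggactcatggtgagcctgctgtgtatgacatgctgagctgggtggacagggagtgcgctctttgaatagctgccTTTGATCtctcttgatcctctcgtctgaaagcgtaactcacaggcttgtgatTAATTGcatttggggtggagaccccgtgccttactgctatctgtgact
chr12:86450982-86451181, + strand, nearest to Esrrb: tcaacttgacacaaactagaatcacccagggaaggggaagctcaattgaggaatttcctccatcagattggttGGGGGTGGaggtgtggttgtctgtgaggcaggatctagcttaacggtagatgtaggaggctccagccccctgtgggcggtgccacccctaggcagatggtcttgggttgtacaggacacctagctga
Of the first 7, 4 carried the homeodomain core, 1 had the ESRRB site alone (Knop1), and the windows near Klf5 and Gm13652 had no match to any of the 4 patterns. The last 2 are not typical of their genes or lists. Among windows not printed, those near the Wnt pathway genes Sp5 and Tcf7l1 and at the other Esrrb member had no match either. A match is a run of letters and not evidence of binding, and the nearest gene is given as a landmark.

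One of the 8 lowest members lies in an intron of Naa35, which codes for a subunit of an N-terminal acetyltransferase. It held 21.8 and 14.5 CPM in the NANOG-FKBP NT libraries, 2.40, 0.667 and 1.23 CPM at 2 h, 2.81, 4.22 and 2.96 CPM at 6 h, and 1.93, 2.18 and 1.59 CPM at 24 h. No treated library overlapped NT, and the mean at 2 h was already 7.91% of NT. In SOX2-FKBP it went from 13.8 and 9.68 CPM in NT to 11.5 and 9.80 CPM at 2 h and 5.00 and 3.31 CPM at 24 h.

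The peak upstream of Klf5, a Krüppel-like factor of the naive network (chr14:99274868-99276154, intergenic, 22733 bp from the start), behaved alike. Its NT libraries had 18.3 and 15.5 CPM, and the 9 treated NANOG-FKBP libraries lay between 1.72 and 3.82 CPM. In OCT4-FKBP the replicates stood apart, with 8.04 and 21.3 CPM in NT, 9.16 and 16.1 CPM at 2 h, 4.76 and 14.1 CPM at 6 h and 1.36 and 6.73 CPM at 24 h. The change from 6 h to 24 h there (log2 fold change -1.22, SE 0.42, edgeR adjusted p = 0.0652) did not pass the threshold.

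The intergenic peak 147516 bp downstream of the start of Dmrta2, a DM-domain transcription factor gene (chr4:110125103-110126185), went from 6.72 and 10.3 CPM in NT to 1.69, 0 and 2.46 CPM at 2 h and 0.613, 0.435 and 0.397 CPM at 24 h. SOX2-FKBP cells held much more of this peak, 21.1 and 21.6 CPM in NT, 27.6 and 29.3 CPM at 2 h and 17 and 14.1 CPM at 24 h. At 24 h the SOX2-FKBP mean was 72.7% of NT, and the NANOG-FKBP mean 5.65%.

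The peak in the Iqck intron, nearest to Knop1 (chr7:118887176-118888438), had 23.1 and 29.6 CPM in NT, 6.04, 4.67 and 5.33 CPM at 2 h and 2.80, 2.61 and 2.91 CPM at 24 h. In SOX2-FKBP it stood at 148% of NT at 2 h and 53.2% at 24 h, and in OCT4-FKBP at 161% and 46.8%. The others of this group, near Abcc12, Gm48742, Gm47887 and Gm13652, ended between 6.33% and 10.0% of NT in NANOG-FKBP at 24 h. In the OCT4-FKBP line at 24 h, 3 of these 4 lay between 12.6% and 21.8% of NT, and the peak near Gm13652 at 114%.

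**Figure D1:**
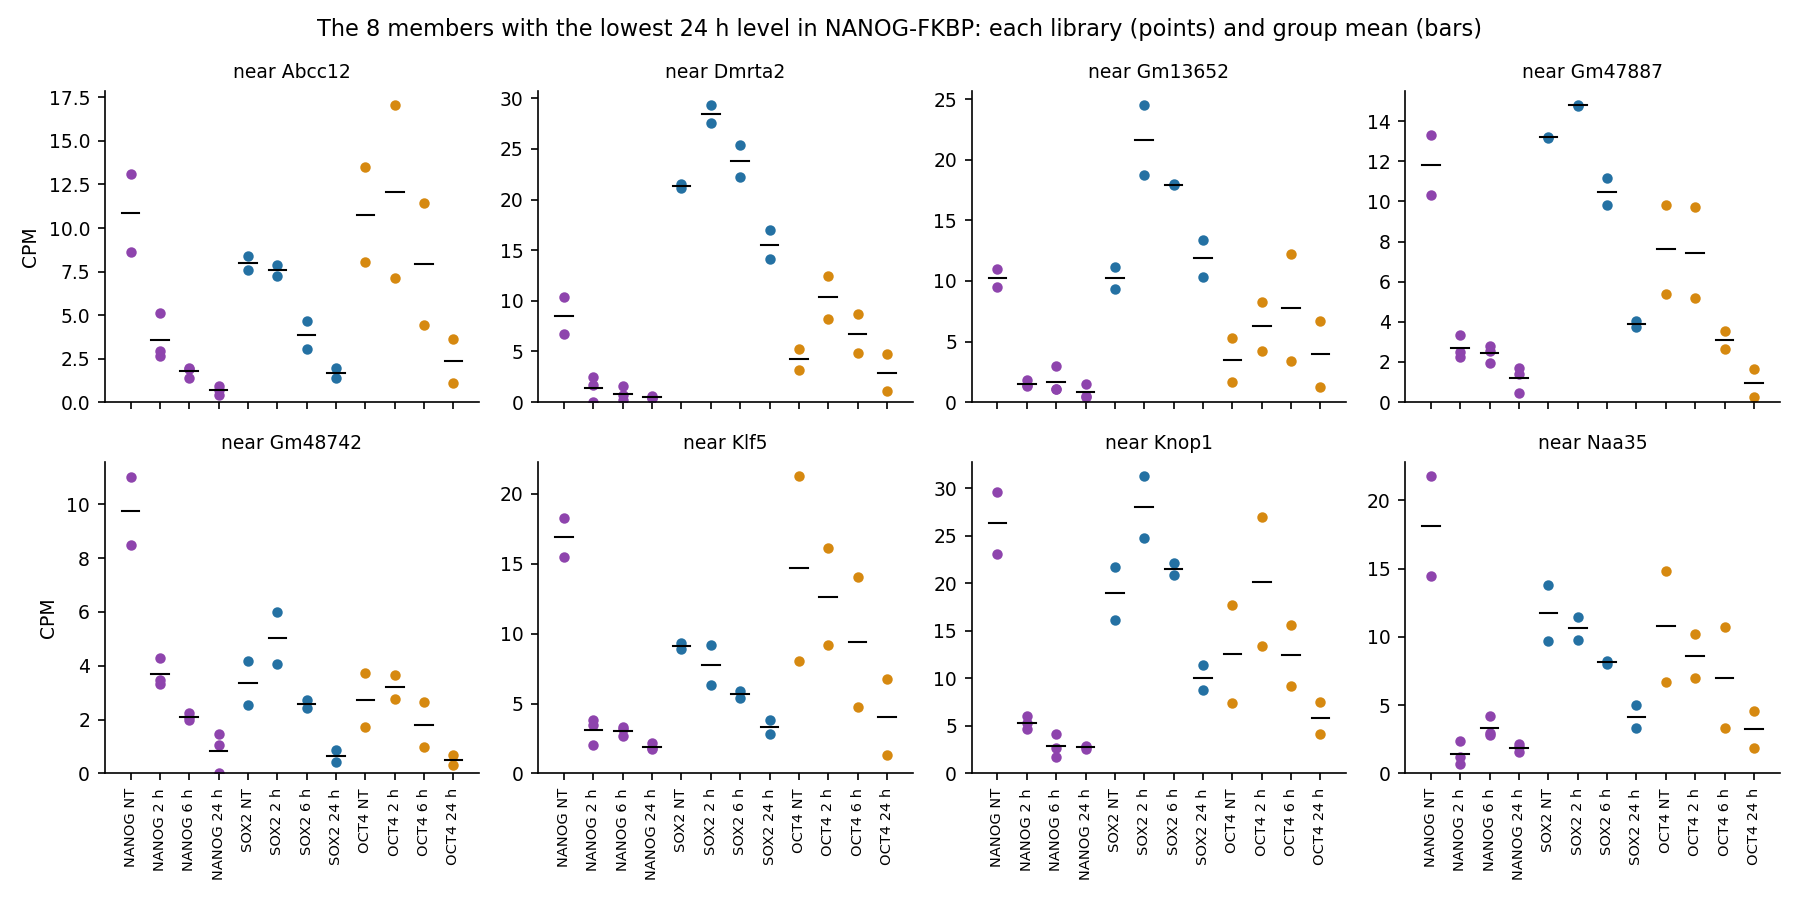
CPM of the 8 members with the lowest 24 h level in NANOG-FKBP (y axis, from 0) in each library of the 3 lines at NT, 2, 6 and 24 h (x axis), with points for libraries and bars for group means. The NANOG-FKBP points drop at 2 h, whereas the SOX2-FKBP mean near Naa35 is 11.7 CPM in NT and 4.15 CPM at 24 h.

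The 5 members with the highest NT level stood between 15.7% and 73.1% of NT at 24 h. The strongest, in an intron of Gss, which codes for glutathione synthetase (chr2:155589638-155591538), held 64.3 and 50 CPM in NT, 25.3, 20.0 and 24.0 CPM at 2 h, 19.7, 17.6 and 16.5 CPM at 6 h and 9.38, 6.97 and 10.6 CPM at 24 h of NANOG depletion. Each later time lay below the one before, with no overlap of the libraries. The peak in the Rgs3 intron (chr4:62660221-62661809), the gene of a regulator of G-protein signalling, went from 71.7 and 39.6 CPM to 35.0, 24.8 and 25.8 CPM. The promoter peak of Cdc42ep4 (chr11:113750483-113752644), an effector of the GTPase CDC42, went from 52.0 and 59.1 CPM to 40.2, 36.1 and 37.0 CPM. The peaks near Lrrc74a and Rin1, the latter coding for a RAS effector, stood at 73.1% and 49.1% of NT at 24 h.

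Over the members as a whole, the median level in NANOG-FKBP was 71.4% of NT at 2 h, 66.1% at 6 h and 51.4% at 24 h, and the medians of single libraries ranged from 63.7% to 74.5%, 57.3% to 70.2% and 43.8% to 57.3%. The shared peaks stood at 44.8% at 24 h and the accessible peaks at 97.7%. The 2 h and 6 h libraries were not used in the choice, but the NT libraries they are divided by were. The limit at 24 h was read also on replicates held out of the choice. The held-out replicate was divided by the same NT mean that the choice used, so this reading is not independent of the choice. Peaks chosen without replicate 1, 2 or 3 (4269, 3084 and 3386 peaks) were at or under 0.75 of NT in the held-out replicate in 56.9%, 78.8% and 71.8% of cases, against 18.8%, 34.1% and 21.6% of the accessible peaks.

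In the SOX2-FKBP line the members stood above NT early and below it late. Their median was 115% of NT at 0.5 h, 117% at 1 h, 116% at 2 h (a time the rule used), 101% at 6 h and 81.4% at 24 h. In OCT4-FKBP it was 124% at 2 h, again used by the rule, 109% at 6 h and 72.2% at 24 h. The OCT4-FKBP libraries differed more among themselves, with medians of 54.8% and 85.8% at 24 h, and replicate 1 lay below replicate 2 in NT and at all 3 treated times. The shared peaks were already at 43.9% and 43.7% at 2 h in the 2 lines and ended at 25.7% and 22.7%. The accessible peaks stayed near 100%, except for 91.1% in OCT4-FKBP at 24 h. Because the rule keeps peaks whose 2 h level is high relative to NT, values above 100% at 2 h are partly set by the choice, and 0.5, 1 and 6 h share the NT denominators.

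**Figure D2:**
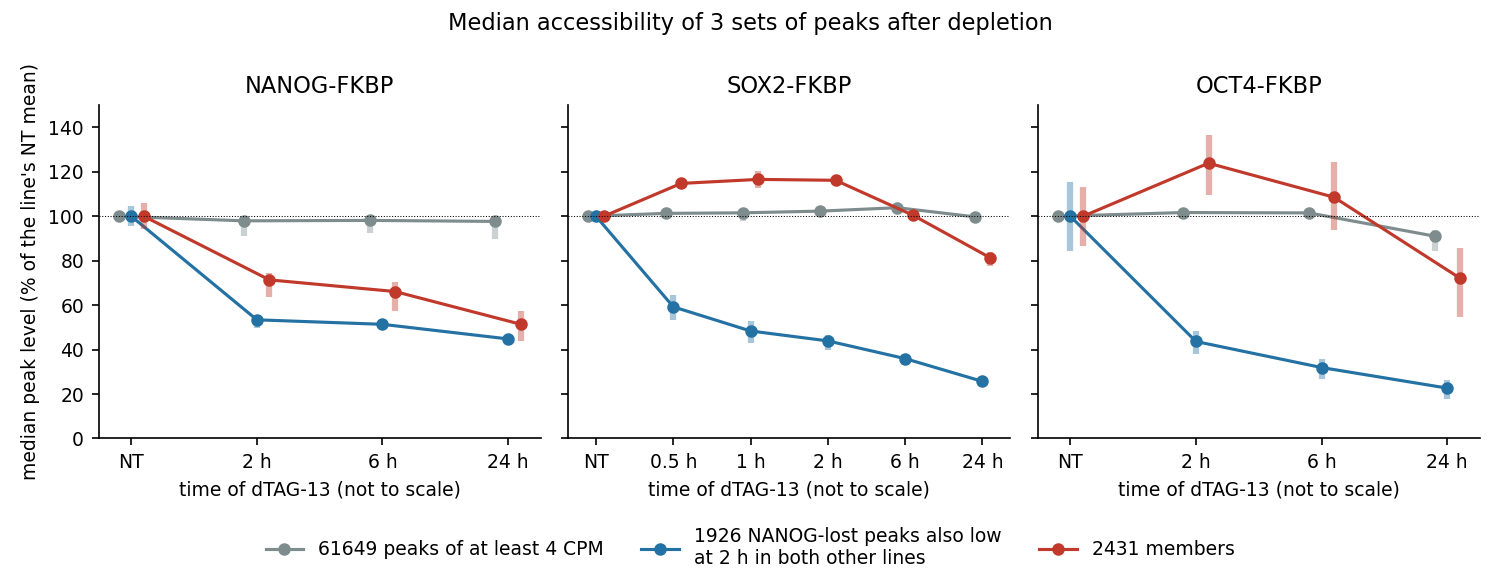
Median level of the members, the shared peaks and the accessible peaks as a percentage of the line's own NT mean (y axis) over time of dTAG-13 (x axis, not to scale), with a pale bar for the range of the single-library medians. The members lie above 100% in SOX2-FKBP until 2 h and reach 81.4% at 24 h, whereas the shared peaks are at 43.7% by 2 h in OCT4-FKBP.

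By 24 h, 1016 members (41.8%) were at 0.75 of NT or lower in SOX2-FKBP and 1277 (52.5%) in OCT4-FKBP, against 30.8% and 38.3% of the accessible peaks. Both lines had passed the limit at 742 members (30.5%, against 24.5% of the accessible peaks), and neither had at 880 (36.2%, against 55.4%). The rule's limit of 0.8 at 2 h was not applied to these lines at 24 h.

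The late fall was tested between times that the rule did not use. From 6 h to 24 h of OCT4 depletion, 649 of 2431 members lost accessibility (26.7%) and 12 gained it (0.494%), by edgeR's quasi-likelihood test over all 166430 peaks tested, at an adjusted p of 0.05. Over all peaks tested, 4.49% were lower and 2.92% were higher. Of the accessible peaks, 9.49% were lower, and of the shared peaks 6.81%. The rule kept members at 0.8 of NT or more at 2 h, whereas 18.7% of the accessible peaks were at 0.75 or lower then. At 6 h the median was 109% of NT at members and 31.9% at shared peaks, so the sets had unlike accessibility left to lose. How far the choice shapes these shares was not tested. The median log2 fold change of the members was -0.58, that of the shared peaks -0.37 and that of the accessible peaks -0.06, and 83.3% of members had a negative change, against 54.2% of the accessible peaks. Both 24 h libraries lay below both 6 h libraries at 1294 members (53.2%) and at 33.7% of the accessible peaks. The count depends on each library: it was 175 without the treated libraries of replicate 1, and 333 without those of replicate 2. With the OCT4-FKBP libraries fitted alone it was 370, where 2.42% of all peaks were lower. With the replicate number added to the fit as a block it was 1049, where 14393 of the 166430 peaks were lower.

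The peak with the steepest fall lies 2907 bp upstream of Rab11fip3, which codes for an effector of recycling endosomes (chr17:26072300-26072661, intergenic). In OCT4-FKBP it had 4.98 and 6.51 CPM in NT, 4.44 and 5.26 CPM at 2 h, 2.56 and 4.11 CPM at 6 h and 0.407 and 0.329 CPM at 24 h. The 24 h libraries were the lowest and did not overlap any other (log2 fold change from 6 h -3.05, SE 0.49, adjusted p = 0.000106). In SOX2-FKBP it stood at 58.8% of NT at 24 h.

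In an intron of Jdp2, a repressor of AP-1 (chr12:85613773-85614210), the OCT4-FKBP level went from 4.89 and 4.25 CPM in NT to 11.8 and 8.43 CPM at 2 h and 8.79 and 10.3 CPM at 6 h, then 1.22 and 1.31 CPM at 24 h. The last step was -2.84 (SE 0.34, adjusted p = 1.62e-06). The peak 1776 bp upstream of the start of Gm45903 (chr8:75198940-75200197) followed the same course, with 17.7 and 16.3 CPM at 2 h, 12.5 and 19.8 CPM at 6 h and 1.63 and 2.96 CPM at 24 h (-2.77, SE 0.31, adjusted p = 7.33e-07).

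Gains were few. The largest, in an intron of Dusp10, a phosphatase of stress-activated kinases (chr1:184016435-184016698), went from 1.22 and 2.02 CPM at 6 h to 2.57 and 7.39 CPM at 24 h (1.62, SE 0.41, adjusted p = 0.0106). The next, near Gsdmd, which codes for a pore-forming protein, went from 2.56 and 2.08 CPM to 7.86 and 4.76 CPM (1.52, SE 0.33, adjusted p = 0.00261). The peak near Bbs10 rested on 1 library, with 2.32 and 3.79 CPM at 6 h and 2.85 and 12.6 CPM at 24 h.

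**Figure D3:**
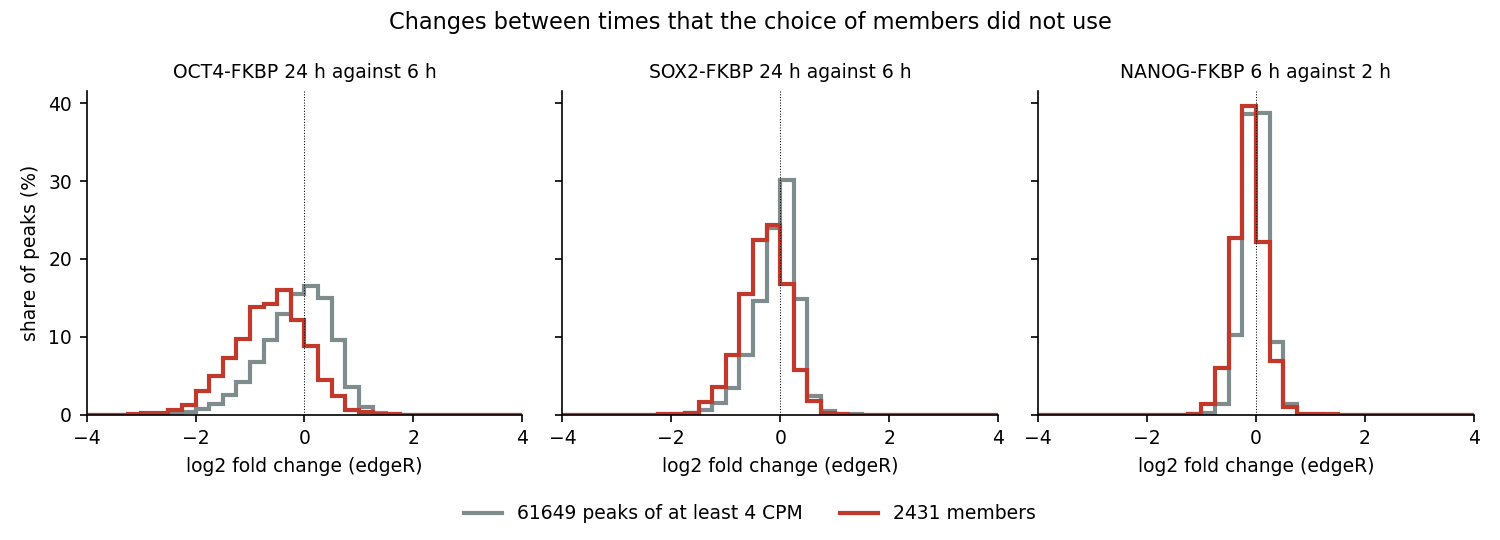
Share of peaks (y axis, %) by log2 fold change in bins of 0.25 (x axis) for members and accessible peaks, in 3 comparisons whose libraries the rule did not use. The members are shifted to lower values in OCT4-FKBP (median -0.58 against -0.06) and in SOX2-FKBP (median -0.26 against -0.02), and less in NANOG-FKBP from 2 h to 6 h (median -0.12).

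From 6 h to 24 h of SOX2 depletion, 13 members fell and 0 rose, with backgrounds of 0.0799% lower and 0.021% higher. At an unadjusted p under 0.05 edgeR had 484 members lower and 24 higher, and DESeq2 called 23 lower. The median log2 fold change was -0.26 and 75.4% of members had a negative change, against -0.02 and 52.2% of the accessible peaks, and -0.43 at the shared peaks. Fitted with the SOX2-FKBP libraries alone, 263 members fell, where 1.54% of all peaks did. With the replicate number as a block in the fit, 246 members fell, where 2135 of 166430 peaks did. Without the treated libraries of replicate 1, or without those of replicate 2, edgeR called 0 members (246 and 188 lower at an unadjusted p under 0.05).

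The peak with the largest fall lies near Gm13580 (chr2:60406926-60407251) and went from 5.94 and 5.80 CPM at 6 h to 1.09 and 1.71 CPM at 24 h (-2.03, SE 0.41, adjusted p = 0.0327). In an intron of Slit3, a secreted guidance cue (chr11:35326069-35326938), the level was 7.09 and 8.14 CPM at 6 h and 2.06 and 2.24 CPM at 24 h (-1.78, SE 0.33, adjusted p = 0.0185). The same peak also fell in OCT4-FKBP, from 7.69 and 10.3 CPM to 1.63 and 1.97 CPM (-2.26, SE 0.35, adjusted p = 5.95e-05). Near Gm31557 (chr9:46701866-46704008) the level fell from 32.7 and 24.9 CPM to 10.6 and 9.82 CPM (-1.46, SE 0.28, adjusted p = 0.021). Of the 13 members called in SOX2-FKBP, 8 were also among the 649 called in OCT4-FKBP, which is 61.5% of the one list and 1.23% of the other. Of the 649, 586 (90.3%) had a negative SOX2-FKBP change.

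The SOX2-FKBP course has 2 early times, and the step from 1 h to 6 h was tested after the values were seen. Of 2428 members tested, 103 were lower at 6 h (4.24%) and 0 higher by edgeR. Of all peaks 0.695% were lower and 0.0567% higher, and 1.59% of the accessible peaks were lower. Of 1806 shared peaks tested, 85 were lower (4.71%), a share near that of the members. At an unadjusted p under 0.05, 603 members were lower and 48 higher. The median log2 fold change was -0.21 at members and -0.38 at shared peaks. Without the treated libraries of replicate 1 there were 59 calls, and without those of replicate 2, 149. Of the 103 members, 57 were also called in OCT4-FKBP from 6 h to 24 h (55.3% of the one list and 8.78% of the other).

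Whether the fall from 6 h to 24 h differed between OCT4-FKBP and SOX2-FKBP was tested as a difference of the 2 changes, also after the values were seen. At 4 members it was more negative in OCT4-FKBP and at 0 more positive by edgeR, against 0.0222% and 0.0018% of all peaks. At an unadjusted p under 0.05, 415 members were more negative and 44 more positive. With the replicate number as a block, 186 members were more negative and 8 more positive, against 2063 and 804 of all peaks. The clearest of the 4 was in an intron of Plec, which codes for the cytolinker plectin (chr15:76186558-76187617), with 19.3 and 19.5 CPM at 6 h and 2.44 and 3.29 CPM at 24 h in OCT4-FKBP, against 9.07 and 9.74 CPM and then 12.5 and 9.28 CPM in SOX2-FKBP. This peak started from 22.3 and 19.4 CPM in OCT4-FKBP NT and from 7.88 and 10.5 CPM in SOX2-FKBP NT.

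In NANOG-FKBP, from 2 h to 6 h, 0 members were lower and 0 were higher by edgeR, and the background was 0 in both directions. At an unadjusted p under 0.05 there were 87 lower and 6 higher, and DESeq2 called 0. Same-numbered treated libraries of this line deviated together. An edgeR fit that took account of this had 176 members lower and 14 higher at the same unadjusted limit, and 0 in either direction after adjustment. In the fit that did not, the median log2 fold change was -0.12, with 69.8% negative against 50.5% of the accessible peaks. The median member had gone from 71.4% to 66.1% of NT between the 2 times.

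The members were read against lists of genes that matter to mESCs, with each peak assigned to the gene whose start is nearest within 100 kb. Over all genes, 3.89% of the accessible peaks so assigned were members. Members were 7 of 88 peaks near Wnt pathway genes (7.95%), 4 of 54 near formative and primed epiblast genes (7.41%), 5 of 92 near LIF and BMP pathway genes (5.43%), 2 of 35 near primitive endoderm genes (5.71%) and 2 of 44 near Nodal and activin genes (4.55%). They were 4 of 182 peaks near naive pluripotency regulators (2.2%), 3 of 108 near FGF and ERK genes (2.78%), 2 of 84 near polycomb and DNA methylation genes (2.38%) and 1 of 56 near trophectoderm genes (1.79%). With so few members in a list these shares are descriptions only. In all, 29 members lay near a listed gene, and 9 of them fell from 6 h to 24 h in OCT4-FKBP, 0 rose, and 0 were called in SOX2-FKBP. Among all members 26.7% fell in OCT4-FKBP, and among all peaks 4.49%.

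Among signalling genes, the ligand gene Nodal had a member 11760 bp upstream (chr10:61405462-61406505). Its NANOG-FKBP level was 15.9 and 12.9 CPM in NT, 18.5, 24.7 and 19.9 CPM at 2 h, 12.1, 18.7 and 13.6 CPM at 6 h and 7.36, 6.53 and 7.93 CPM at 24 h, so that it was above NT at 2 h, overlapped NT at 6 h and lay below it at 24 h. In OCT4-FKBP it went from 21.1 and 27 CPM at 6 h to 10.8 and 12 CPM at 24 h (-1.01, SE 0.24, adjusted p = 0.00667). The receptor gene of the same pathway, Acvr1b, had a member in an intron (chr15:101180711-101181759), with 21.8 and 25.2 CPM in NANOG-FKBP NT and 12.2, 5.34 and 9.64 CPM at 2 h. In OCT4-FKBP this peak stood at 161% of NT at 2 h and fell from 6 h to 24 h (-1.62, SE 0.27, adjusted p = 0.000173).

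The Axin2 peak (chr11:108897606-108899286), near the gene of a scaffold that limits Wnt signalling, was also above NT first in NANOG-FKBP. It had 8.04 and 7.24 CPM in NT, 10.3, 9.34 and 11.1 CPM at 2 h and 5.17, 3.48 and 4.49 CPM at 24 h. The promoter peak of Sp5, a Wnt-induced zinc finger factor, stood at 68.4% of NT in NANOG-FKBP at 24 h, 145% in SOX2-FKBP and 159% in OCT4-FKBP. The peak near Tcf7l1, the repressor among the TCF factors, stood at 67.1%, 127% and 108% in NANOG-FKBP, SOX2-FKBP and OCT4-FKBP at 24 h.

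Fgf5, the ligand gene that marks exit from the naive state, had a member in its intron (chr5:98255716-98256404). It held 14.3 and 21.4 CPM in NANOG-FKBP NT and 6.75, 11.3 and 5.95 CPM at 24 h. In OCT4-FKBP it kept 25.8 and 25.8 CPM at 6 h and then had 7.72 and 5.09 CPM at 24 h (-1.92, SE 0.29, adjusted p = 4.63e-05). Downstream of Spry4, an inhibitor of the ERK pathway, a peak with 13.4 and 21.9 CPM in NANOG-FKBP NT showed a like fall in OCT4-FKBP (-1.99, SE 0.33, adjusted p = 0.000144). In Tead4, the gene of a trophectoderm factor, an intronic peak (chr6:128296114-128297319) went from 52.5 and 62.8 CPM at 6 h to 10.2 and 23.2 CPM at 24 h (-1.77, SE 0.26, adjusted p = 2.99e-05).

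Within the naive network, Esrrb had 2 intronic members. One (chr12:86394861-86396365) held 22.6 and 15.7 CPM in NANOG-FKBP NT and 11.9, 13.1 and 9.78 CPM at 24 h, the other (chr12:86450803-86451302) 11.7 and 9.48 CPM and then 5.08, 4.79 and 3.83 CPM. The second was at that level from 2 h on, with 4.98, 2.67 and 5.54 CPM. In OCT4-FKBP both fell from 6 h to 24 h (-1.18, SE 0.26, adjusted p = 0.00293, and -1.44, SE 0.37, adjusted p = 0.0123). In SOX2-FKBP the second stood at 114% of NT at 24 h. The 3 members with the highest NT level near the LIF target kinase genes Pim1 and Pim3 stood between 27.8% and 69.5% of NT in NANOG-FKBP at 24 h.

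**Figure D4:**
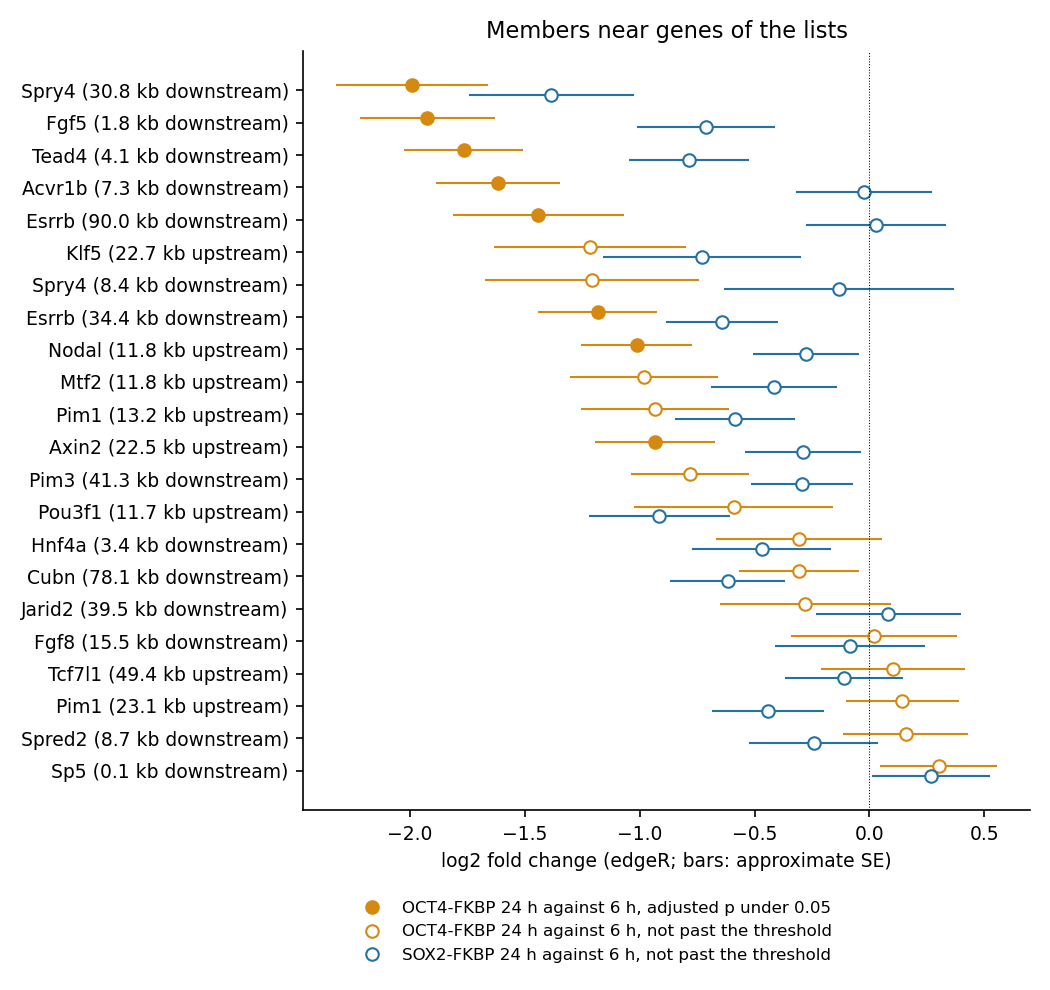
Change from 6 h to 24 h (x axis, log2 fold change with approximate SE) of the members near genes of the lists (y axis, with distance of the summit from the start), in OCT4-FKBP and SOX2-FKBP. Filled points passed the threshold, 8 in OCT4-FKBP and 0 in SOX2-FKBP. At most 3 members per list are drawn.

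Members lay near 1882 different genes, and 1618 of these had only 1 member. Several genes had clusters. Gm10532 was nearest to 7 members (of 21 accessible peaks), Grhl3, which codes for an epithelial transcription factor, to 6 of 12, Ezr, the gene of the membrane linker ezrin, to 5 of 11, Gadd45g, a stress-induced gene, to 5 of 9, and Gm26651 to 5 of 6. At Grhl3, 5 of the 6 fell in OCT4-FKBP from 6 h to 24 h, and at Gm10532 4 of 7. At Ezr, Gadd45g and Gm26651 none of the 5 did, and their log2 fold changes spanned -0.78 to 0.17, -0.56 to 0.05 and -0.57 to 0.04. In this step 26.7% of all members, 9.49% of the accessible peaks and 4.49% of all peaks tested fell. These genes were picked for their number of members. Calls at their other accessible peaks were not counted, so the counts are descriptions only.

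The members were mostly distal. Only 219 (9.01%) had a summit within 500 bp of an annotated start, against 27.1% of the accessible peaks and 3.06% of the shared peaks, while 52.4% lay in introns and 37.3% between genes. The median width was 1030 bp and the median distance to a start 8476 bp. Their GC content was 50.6% at the median, close to 51.3% of the accessible peaks and above 46.1% of the shared peaks. Chromosome X held 18 members, 1.70% of its accessible peaks, and the autosomes between 2.74% and 4.68%. The median of the members at promoters stood at 83.0% of NT at 2 h of NANOG depletion (other members 70.2%) and at 97.6% at 24 h of SOX2 depletion (80.0%).

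In 200 bases around the summit, the NANOG homeodomain core was found at 16.6% of members, 23.2% of shared peaks, 9.33% of accessible peaks and 10.3% of all peaks. The KLF box was found at 21.1% of members, 12.8% of shared and 15.2% of accessible peaks (13.1% of all peaks). The ESRRB site was found at 13.1%, 7.42% and 7.44% (8.17% of all), and the TCF-LEF site at 5.84%, 3.58% and 2.36% (2.49% of all). The TFCP2L1 pattern was at 3.78% of members, 2.18% of shared and 3.96% of accessible peaks (3.64% of all). At least 2 of the 4 patterns core, KLF, ESRRB and TCF-LEF stood together at 9.42% of members, 6.07% of shared and 3.69% of accessible peaks.

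SOX and POU patterns, like the NANOG core, were less frequent at members than at shared peaks. The SOX site (CATTGT or CTTTGT) was at 26.1% of members and 45.7% of shared peaks (25.5% of all), the octamer (ATGCAAAT or ATGNTAAT) at 2.96% and 19.7% (4.93% of all), and the composite site (TTGTNATGC), which overlaps the SOX letters, at 0.288% and 5.61% (0.939% of all). No SOX or POU pattern was present at 71.5% of members and 41.3% of shared peaks. The SOX share of the members was near that of the accessible peaks (25.3%), while the octamer share was below that of the accessible peaks (5.66%). Outside promoters the SOX site was at 26.6% of members and 29.9% of accessible peaks. The members and shared peaks were separated by their 2 h values in SOX2-FKBP and OCT4-FKBP, so their difference in these patterns is a description with no test. Members and shared peaks also differ in GC content, as given above, and its part in these shares was not tested.

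**Figure D5:**
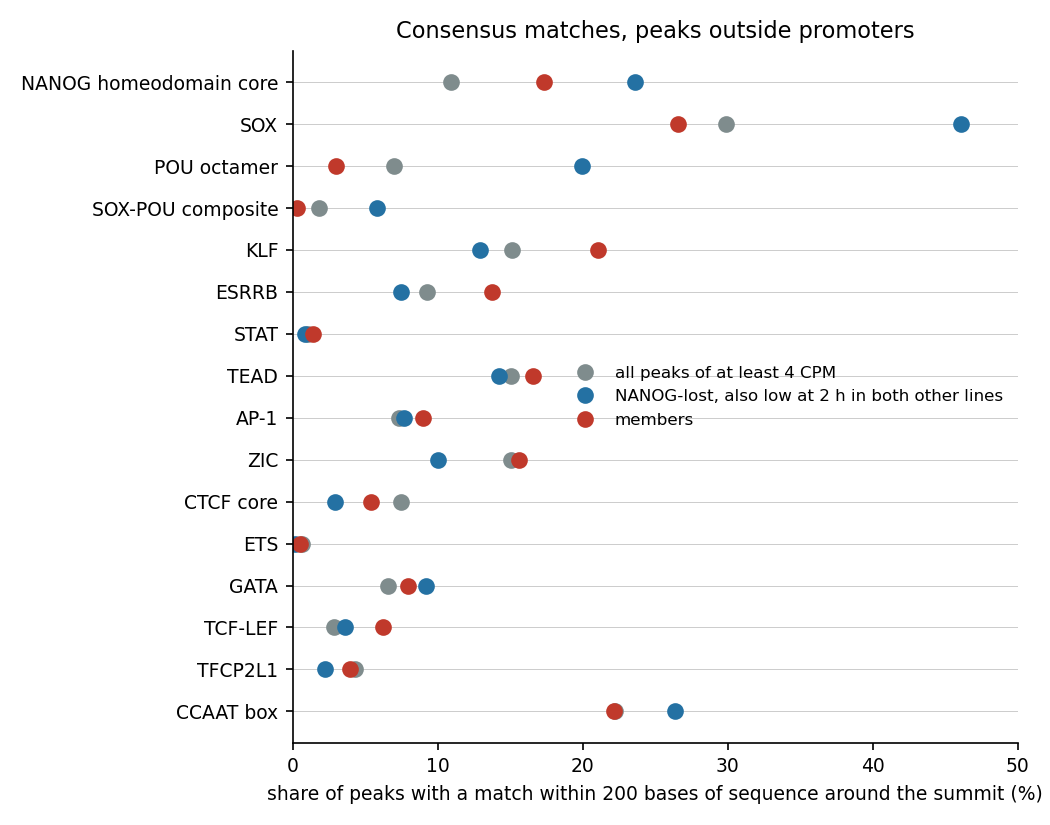
Share of peaks outside promoters with a match to each consensus pattern in 200 bases around the summit (x axis, %; patterns on the y axis), for members, shared peaks and accessible peaks. The members are highest for KLF, ESRRB and TCF-LEF (21.0%, 13.7% and 6.24%) and the shared peaks for SOX, POU and the NANOG core (46.1%, 19.9% and 23.6%).

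Members with and without a pattern are compared as a description, with no test. Those with the NANOG core stood at a median of 61.5% of NT at 2 h of NANOG depletion, against 73.0% of those without it. The 142 members with the TCF-LEF site stood at 142% of NT at 2 h and 136% at 6 h in OCT4-FKBP, against 108% at 6 h without it. At 24 h the 2 groups were at 76.9% and 72.0%, so that the 6 h to 24 h step was -0.81 and -0.57 at the median. The ZIC pattern (CAGCAGG) was at 15.5% of members and 12.5% of all peaks. With it, 150 of 377 members fell from 6 h to 24 h in OCT4-FKBP (39.8%), against 24.3% of the others. The median 24 h level there was 57.5% of NT with the pattern and 74.97% without. Of the accessible peaks 9.49% fell in that step, and of all peaks tested 4.49%. The share among accessible peaks with the ZIC pattern was not computed, so this is not shown to be particular to members. Members at or above the median GC content stood at 79.9% of NT at 2 h of NANOG depletion and those under it at 61.8%. The part of GC content in the difference by the NANOG core was not tested. Members with the SOX site also stood lower at that time than those without it (66.8% against 73.2%).

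More calls fell on members with a high level. Of 1052 members of at least 8 CPM in NT, 39.7% fell in OCT4-FKBP from 6 h to 24 h, and of the 1379 lower ones 16.8%. Calls were also more frequent among well-counted peaks in general. When no library was allowed under 10 counts, 5758 of 33328 tested peaks were lower, against 7471 of 166430 in the main fit. The share by NT level was not computed for the accessible peaks, so this difference is not shown to be particular to members.

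At the 24 h limit, neighbouring peaks differed little. The members just inside, near 4930431P22Rik, Gm48287 and Gm33524, had their highest 24 h replicate at 0.74995, 0.74979 and 0.74964 of the NT mean. The peaks just outside, near Gm45442, 1700036G14Rik and Fbxo44, had theirs at 0.75001, 0.75003 and 0.75003.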

How the data were processed

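ATACseq libraries of 3 FKBP-tagged mESC lines were analysed. The authors aligned reads to mm10 (BWA 0.7.17-r1188), kept mapping quality 10 or higher (SAMtools 1.10), removed duplicates (Picard 2.12.0), used MACS2 for peaks of the merged libraries, and deposited raw counts of fragments per peak. Summit positions came from the deposited peak list. Of 45 samples, 31 have a column in the count table; the other 14 were not analysed here.

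CPM used counts outside the 2 mitochondrial peaks. Members, lists and comparisons were chosen with earlier results of these data known. Tests used edgeR 4.0.16 in R 4.3.3 (quasi-likelihood, TMM, Benjamini-Hochberg over all peaks) on 27 libraries; a peak was tested if over 6 of them had counts above 10, which left 166430 peaks; the SOX2-FKBP step from 1 h to 6 h used 12 libraries and 160432 peaks (counts above 10 in over 2). DESeq2 1.42.0 was an alternative. SEs are approximate (the fold change over the root of F). Of the tests, edgeR's on the NANOG-FKBP step from 2 h to 6 h was tried on simulated counts. Annotation was GENCODE vM21. Named peaks were the 8 with the lowest 24 h level among those of at least 8 CPM in NT, the 5 highest in NT, at most 3 per gene list, the 3 largest called changes in each direction in each planned comparison, and the 3 on each side of the 24 h limit; peaks that differed between lines and genes with several members were named after their values were seen. In NANOG-FKBP, same-numbered treated libraries deviated together (6 h with 2 h, correlation 0.18 to 0.39), so the numbers pair them there. The sequence of 1 named peak is not reported here.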

Additional observations from a re-analysis of the deposited data

Results flagged for a closer look

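At 4 members the change from 6 h to 24 h was more negative in OCT4-FKBP than in SOX2-FKBP by a test of the difference itself (edgeR, adjusted over all peaks tested). The difference in log2 fold change was -2.96 in the Plec intron (SE 0.39, adjusted p = 0.000542), -2.45 near Gm45903 (SE 0.41, adjusted p = 0.0173), -2.43 in the Llgl2 intron (SE 0.44, adjusted p = 0.024) and -2.05 in the Nfe2l1 intron (SE 0.36, adjusted p = 0.0179). In OCT4-FKBP the Llgl2 peak had 37.9 and 46.0 CPM at 6 h and 4.07 and 9.86 CPM at 24 h, against 26.6 and 19.1 CPM and then 25 and 15.5 CPM in SOX2-FKBP. The Nfe2l1 peak had 29.4 and 29.9 CPM and then 5.15 and 7.88 CPM in OCT4-FKBP, and between 17 and 19.2 CPM in SOX2-FKBP at both times. At all 4 peaks both OCT4-FKBP libraries at 24 h lay below both at 6 h. The comparison was chosen after the values were seen, and the line of origin and the degraded factor cannot be told apart in it.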

How the results depend on the processing

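The members' median log2 fold changes in the 4 comparisons of times stayed negative under the settings run. Among members named above, 45 values over 20 results lost the threshold under an alternative, and 0 reversed. With at least 10 counts in every library, only 607 members could be tested; 322 fell and 2 rose in OCT4-FKBP from 6 h to 24 h (median -0.79), and 20 fell in SOX2-FKBP (median -0.36), while of 33328 peaks tested 5758 were lower in OCT4-FKBP and 180 in SOX2-FKBP. With only the line's own libraries, 370 fell and 5 rose in OCT4-FKBP and 263 fell and 4 rose in SOX2-FKBP; DESeq2 called 23 lower in SOX2-FKBP. Without single replicates, OCT4-FKBP had 175 to 333 lower and 2 to 2 higher (median -0.53 to -0.77), SOX2-FKBP from 6 h to 24 h 0 to 0 lower, and SOX2-FKBP from 1 h to 6 h 59 to 149 lower and 2 to 5 higher. The number of members was 3084 to 4269 without one 24 h replicate and 3193 to 3871 without one NT replicate. Of the 2431 members, 1642 remained without NT replicate 1 and 1976 without NT replicate 2. With DESeq2's size factors, 6337 of all peaks were lower and 6449 higher in OCT4-FKBP from 6 h to 24 h, against 7471 and 4862 with TMM.

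With the replicate block, 1049 members fell and 40 rose in OCT4-FKBP from 6 h to 24 h, 246 fell and 3 rose in SOX2-FKBP, 290 fell and 10 rose from 1 h to 6 h, and 186 were more negative and 8 more positive in OCT4-FKBP than in SOX2-FKBP; NANOG-FKBP kept 0 calls. Over all 166430 peaks the block gave 14393 lower and 12988 higher in OCT4-FKBP, 2135 lower and 828 higher in SOX2-FKBP from 6 h to 24 h, and 2063 more negative and 804 more positive in OCT4-FKBP than in SOX2-FKBP. From 1 h to 6 h in SOX2-FKBP it gave 3509 lower and 948 higher of 160432 peaks. In SOX2-FKBP and OCT4-FKBP same-numbered deviations also correlate (0.24 and 0.39 between 6 h and 24 h), with only 2 libraries at each time. No label says that a number marks a shared batch in these lines, so counts with and without the block are both given. Depth limits NANOG-FKBP most, where replicate 2 held 7 counts in the median member at 24 h.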
